A study of Mus musculus with 4 samples.

Results

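A group of neighbouring genes on mouse chromosome 11 was examined in single nuclei of the hippocampus of mice heterozygous for an R87C substitution in Cyfip2 and of wild-type littermates. The 6 genes, Ddc, 1700042O10Rik, Fignl1, Grb10, Cobl and Ikzf1, were 6 of 32285 genes in the count matrices. They were chosen by position near Ddc, after Ddc and the transcript antisense to it had been seen to be higher in the mutant libraries of this same comparison. For Ddc and 1700042O10Rik the difference between genotypes was therefore used in the choice and is given as a description without a test. The other 4 genes were taken for where they lie, and their differences were tested.

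Nuclei came from both hippocampi of 2 wild-type mice (WT) and 2 Cyfip2 knock-in mice (KI), 1 library per mouse, adults at the oldest age of the study. All KI mice carried 1 mutant and 1 normal allele in every cell of the body, and all mice shared a C57BL/6N background. KI replicate 2 carries R88C in its treatment label but R87C in its protocol, and was kept in the KI group that its genotype label gives. The 4 libraries held 55640 barcodes and between 73009975 and 80913580 UMIs (unique molecular identifiers, each 1 counted RNA molecule) each, and 52016 nuclei were kept. Pairs of libraries shared between 40 and 67 barcodes. Malat1, a nuclear RNA, took 8.90% and 8.70% of UMIs in WT and 13.7% and 12.2% in KI, a share that enters the total to which every value is scaled. Replicates of a genotype differed by more than sampling noise, with a chi-square per degree of freedom of 15.5 in WT and 43.0 in KI. Whether the libraries differed by batch was not tested.

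Ddc codes for aromatic L-amino acid decarboxylase, the enzyme that makes dopamine from L-DOPA and serotonin from 5-hydroxytryptophan, and is best known from monoaminergic neurons, whose cell bodies lie outside the hippocampus. Oligodendrocytes are the glial cells that wrap axons in myelin. Grb10, the gene next to Ddc, is an imprinted gene, meaning that the maternal and paternal copies are used unequally, and parts of the region around it share that property in some tissues.

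On GRCm38, Ddc (ENSMUSG00000020182) spans chromosome 11 from 11814101 to 11898144 on the minus strand. The transcript 1700042O10Rik (ENSMUSG00000086391), annotated as antisense, spans 11868123 to 11885321 on the plus strand. All of its 17199 bases lie inside Ddc, and its 4 exons, 1075 bases in all, share 0 bases with Ddc exons, so on the annotation it is antisense to Ddc introns. Fignl1 ends 5.14 kb below Ddc, Ikzf1 41.2 kb below it, Grb10 begins 32.4 kb above it and Cobl 338.5 kb above it. The mutated gene, Cyfip2, is on the same chromosome, 34.3 Mb from Ddc. The libraries read the 3' ends of transcripts on 1 strand, but the counting settings, strand and introns included, are not given in the sources used here, so a share of reads assigned to the partner on the other strand was not tested.

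The 250 bases before the annotated starts of Ddc and of its antisense transcript are shown because both transcripts were higher in KI although their starts lie apart. The letters are those of RefSeq on GRCm38.p6, 5′ to 3′ on the strand of the gene, and capitals mark matches, on either strand, to the TATA box (TATAAA), the CCAAT box (CCAAT), the AP-1 site (TGANTCA), the cAMP response element (TGACGTCA) or its core (TGACG), and the EGR site (GCGNGGGCG).
Ddc, distal start, chr11:11898145-11898394, minus strand: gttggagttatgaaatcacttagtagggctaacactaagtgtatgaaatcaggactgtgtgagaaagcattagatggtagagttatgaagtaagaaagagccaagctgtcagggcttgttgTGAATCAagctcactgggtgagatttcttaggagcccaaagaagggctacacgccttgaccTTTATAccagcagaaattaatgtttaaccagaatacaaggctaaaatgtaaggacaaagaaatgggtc
Ddc, inner start, chr11:11890409-11890658, minus strand: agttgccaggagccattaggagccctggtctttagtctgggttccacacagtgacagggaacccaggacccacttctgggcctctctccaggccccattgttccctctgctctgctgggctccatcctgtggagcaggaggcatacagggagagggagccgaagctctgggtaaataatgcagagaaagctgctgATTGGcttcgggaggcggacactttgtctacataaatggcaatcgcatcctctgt
1700042O10Rik, chr11:11867873-11868122, plus strand: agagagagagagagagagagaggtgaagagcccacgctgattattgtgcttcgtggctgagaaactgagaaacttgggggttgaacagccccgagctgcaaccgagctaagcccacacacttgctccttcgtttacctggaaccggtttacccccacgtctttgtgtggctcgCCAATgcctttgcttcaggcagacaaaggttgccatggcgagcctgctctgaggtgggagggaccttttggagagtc
The window before the distal Ddc start held 1 AP-1 match and 1 TATA box match, the latter on the opposite strand. The windows before the inner Ddc start and before the antisense start each held 1 CCAAT match, and the antisense window also held 1 E-box (CANNTG, not in capitals). Of 32817 such windows in the RefSeq table, an AP-1 match stood in 6.75%, a TATA box in 12.4%, a CCAAT box in 33.8%, an E-box in 66.2%, the core of the cAMP element in 17.8%, a full cAMP element in 1.55% and an EGR site in 4.70%. The Ddc and antisense windows held 0 matches to the last 3, which says only that these letters are not in these windows.

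Summed over all nuclei, Ddc stood at 5.61 and 4.11 CPM (UMIs of the gene per 1000000 UMIs of the same nuclei) in WT replicates 1 and 2 and at 20.6 and 23.0 in KI replicates 1 and 2. Its antisense transcript stood at 4.79 and 4.00 in WT and at 19.7 and 34.7 in KI. For both transcripts the KI libraries lay above the WT libraries, and the 2 transcripts were at about the same level in 3 of the 4 libraries, with more antisense than Ddc UMIs, 2536 against 1683, in KI replicate 2. The fitted log2 fold change was 2.22 (SE 0.18) for Ddc and 2.67 (SE 0.28) for 1700042O10Rik. Of 21715 genes tested over all nuclei with edgeR's quasi-likelihood test, 0.875% passed a Benjamini-Hochberg adjusted p of 0.05, a background given for the counts that follow. Without KI replicate 2, the library with the divergent allele label, the log2 fold changes were 2.15 and 2.23.

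In every library most of the Ddc UMIs came from oligodendrocytes and from an unnamed cluster, described further on, that carried their markers. Nuclei were grouped by clustering without the 6 genes and named by marker genes, and the oligodendrocyte class of 6247 nuclei had 10 of its 10 markers, such as Mog and Mag, raised. In that class Ddc stood at 61.2 and 55.4 CPM in WT and at 253.7 and 301.5 in KI. The antisense transcript stood at 60.9 and 55.9 CPM in WT and at 243.7 and 435.7 in KI. Neither transcript overlapped between genotypes. Group means were 58.3 ± 4.12 and 277.6 ± 33.8 CPM for Ddc and 58.4 ± 3.53 and 339.7 ± 136.0 CPM for 1700042O10Rik (SD, n = 2 per group), ratios of 4.77 and 5.82. The fitted log2 fold changes were 2.30 (SE 0.17) and 2.58 (SE 0.25).

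The oligodendrocyte marker list did not move in this way. The summed CPM of its 10 markers was 10650 and 10440 in WT and 11310 and 9809 in KI oligodendrocytes, with 2 of the 10 above and 2 below the WT range in both KI libraries. The share of nuclei in the class was 13.7% and 9.92% in WT and 17.7% and 6.71% in KI. In sums over all nuclei, fewer cells of a type and less RNA per cell cannot be told apart, whereas the values within the class do not depend on the number of its nuclei. Oligodendrocyte nuclei were shallow, with a median of 1347 to 1480 UMIs.

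**Figure D1:**
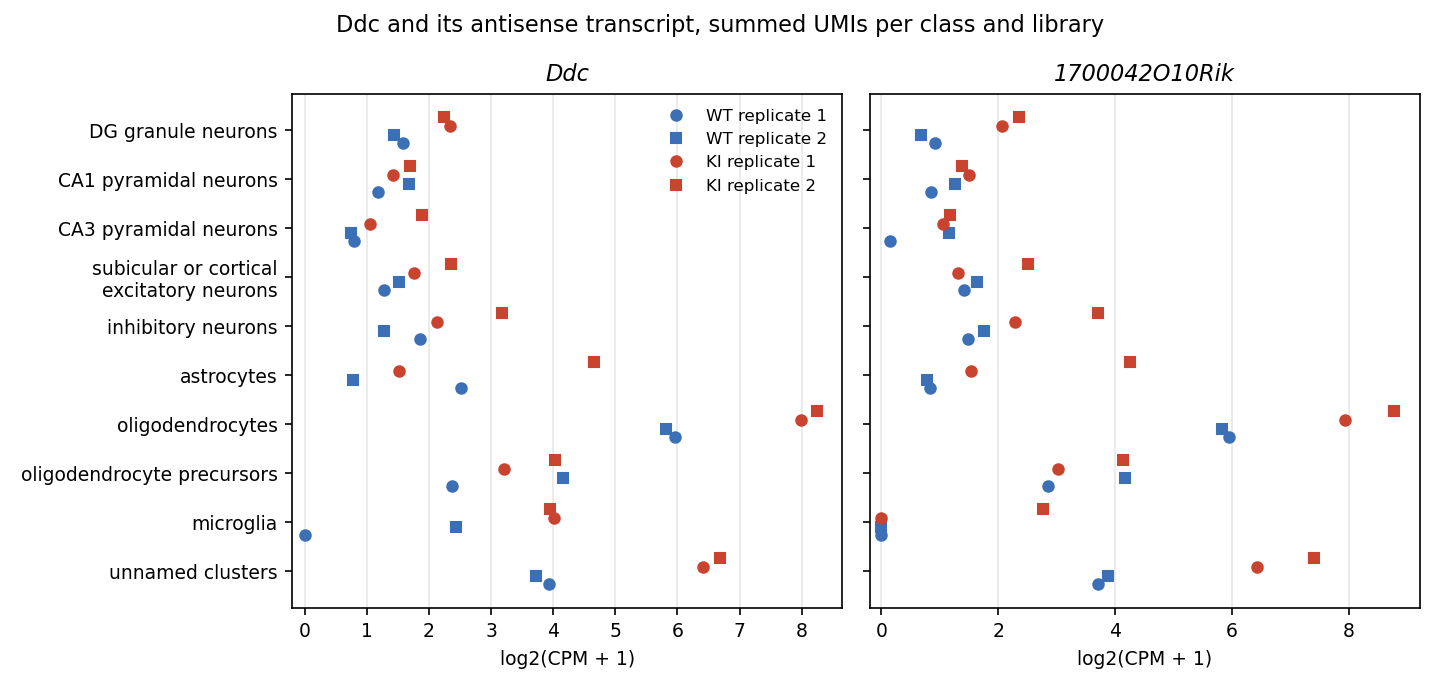
Level of Ddc (left) and 1700042O10Rik (right) in each cell class, as log2(CPM + 1) of the UMIs summed per library; circles and squares are replicates 1 and 2, blue WT and red KI. In oligodendrocytes both KI libraries lie above both WT libraries for both transcripts, and levels in neuron classes are far lower.

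The class divides by genotype at a finer clustering, so the levels were also read within each of its parts. The first finer cluster was mostly WT, with 1998 and 1210 nuclei of the WT libraries beside 45 and 238 of the KI libraries. Within it Ddc stood at 61.5 and 56.1 CPM in WT and at 111.2 (exact Poisson interval 48.0 to 219.1, counting error only, from 8 UMIs) and 301.1 in KI. The antisense transcript stood there at 60.8 and 56.1 CPM in WT and at 125.1 and 311.1 in KI. The second was mostly KI, with 41 and 15 nuclei of the WT libraries beside 2063 and 611 of the KI libraries, and Ddc stood there at 72.1 CPM (interval 19.6 to 184.5) and 0 CPM (0 UMIs, upper limit 168.4) in WT against 257.7 and 310.6 CPM in KI. Both KI libraries lay above both WT libraries in each cluster. The interval of KI replicate 1 in the first cluster overlapped the WT values, however, and the WT values in the second rest on 4 and 0 UMIs.

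The increase was spread over many nuclei. Among oligodendrocyte nuclei brought to 2000 UMIs each, 8.85% (exact 95% interval 6.05 to 12.4) and 10.8% (7.10 to 15.5) of WT nuclei and 35.7% (31.0 to 40.6) and 36.7% (28.9 to 45.1) of KI nuclei had a Ddc UMI. For the antisense transcript the shares were 12.1% and 5.60% in WT and 31.4% and 44.2% in KI. Thinning left out 1710, 995, 1712 and 711 nuclei of the 4 libraries, and without it the Ddc shares were 8.54%, 8.15%, 26.8% and 31.4%. The intervals cover counting error only. The most UMIs of Ddc in 1 oligodendrocyte nucleus was 3 in both WT libraries and 11 and 7 in KI.

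**Figure D2:**
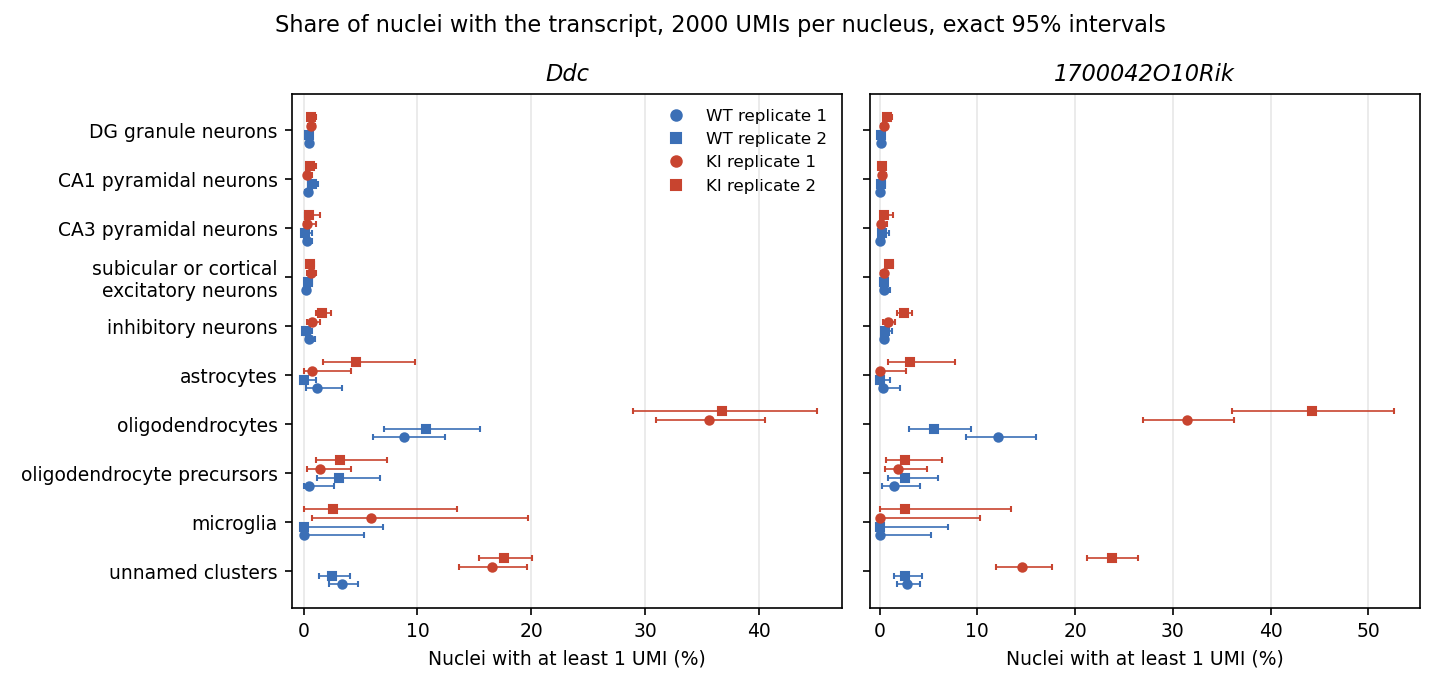
Percent of nuclei with at least 1 UMI of Ddc (left) or 1700042O10Rik (right) per class and library after thinning to 2000 UMIs; bars are exact 95% binomial intervals, blue WT and red KI. Oligodendrocytes stand at 8.85% and 10.8% for Ddc in WT and 35.7% and 36.7% in KI, and DG granule neurons below 1% in every library.

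The antisense transcript was seen more often in nuclei with a Ddc UMI than in nuclei without one. At 2000 UMIs per nucleus, the antisense transcript was seen in 23.3% and 12.0% of Ddc-positive WT oligodendrocyte nuclei and in 11.003% and 4.83% of Ddc-negative ones. In KI it was seen in 48.3% and 68.5% of Ddc-positive and in 22.1% and 30.1% of Ddc-negative nuclei. The ratio of the 2 shares lay between 2.12 and 2.48 in the 4 libraries, so it did not separate the genotypes, and nuclei of 1 library share its depth and free RNA. The WT shares rest on 7 and 3 doubly positive nuclei.

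Neurons held little of either transcript. In granule neurons of the dentate gyrus (DG), the largest class with 12288 nuclei, Ddc stood at 2.01 and 1.71 CPM in WT and at 4.08 and 3.72 in KI, and the antisense transcript at 0.89 and 0.59 in WT and at 3.17 and 4.13 in KI. These values rest on 9 to 49 UMIs per library, and KI lay above WT for both. Nuclei of DG lay mostly in different clusters by genotype. In the mostly WT cluster Ddc stood at 1.98 and 1.72 CPM in WT and 3.002 and 4.11 in KI, from 3 and 12 KI UMIs, and in the mostly KI cluster at 2.56 and 1.42 in WT, from 2 and 1 UMIs, and 4.18 and 3.55 in KI. The antisense transcript stood at 0.70 and 0.62 CPM in WT and 2.00 and 7.88 in KI in the first of these, and at 5.12 and 0.0 in WT and 3.27 and 2.51 in KI in the second. In the second cluster the genotypes therefore overlapped for the antisense transcript, on 4 and 0 WT UMIs. With DG neurons set by a marker gate on each nucleus, the antisense transcript stood at 0.35 and 0.65 CPM in WT and 3.45 and 11.6 in KI, and 1 of 21 and 43 of 67 of its KI UMIs lay in the largest unnamed cluster described further on.

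In CA1 pyramidal neurons Ddc stood at 1.26 and 2.22 CPM in WT and 1.68 and 2.22 in KI, overlapping between genotypes. In CA3 pyramidal neurons it stood at 0.73 and 0.68 in WT and 1.07 and 2.69 in KI, and in subicular or cortical excitatory neurons at 1.42 and 1.87 in WT and 2.37 and 4.13 in KI. The KI libraries lay above the WT libraries in both of these classes, whereas the antisense transcript overlapped between genotypes in both. In CA1 the antisense transcript was higher in KI, at 0.79 and 1.39 CPM in WT and 1.84 and 1.60 in KI. With classes set by a marker gate on each nucleus, which includes nuclei removed here as doublets, the antisense transcript no longer overlapped in CA3 (0.25 and 1.46 CPM in WT, 1.95 and 3.23 in KI) or in subicular or cortical neurons (1.32 and 1.21 in WT, 2.44 and 8.90 in KI). Gated nuclei of the CA3 class itself still overlapped, at 0.16 and 0.94 CPM in WT and 0.89 and 1.59 in KI. Gated CA3 nuclei removed as doublets held 6 antisense UMIs in each KI library. Gated nuclei of the subicular or cortical class itself lay apart, at 0.72 and 1.03 CPM in WT and 1.39 and 3.77 in KI. The share of DG nuclei with a Ddc UMI at 2000 UMIs was 0.45% and 0.44% in WT and 0.61% and 0.66% in KI, against 0.84%, 0.76%, 1.86% and 1.53% unthinned at median depths of 3734 to 4409 UMIs. DG granule neurons are not known to make the enzyme, and their share is given as the background against which the share in oligodendrocytes is read.

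RNA of oligodendrocyte markers was found in neurons as well, and was used as a yardstick. Over the 10 markers, DG granule neurons held 487.9 and 316.3 CPM in WT and 330.6 and 478.7 in KI, although these genes belong to myelin. Per 100 such marker UMIs, oligodendrocytes held 0.57 and 0.53 Ddc UMIs in WT and DG granule neurons 0.41 and 0.54. In KI oligodendrocytes held 2.24 and 3.07, and DG granule neurons 1.24 and 0.78. For the antisense transcript oligodendrocytes held 0.57 and 0.53 in WT and 2.16 and 4.44 in KI, and DG granule neurons 0.18 and 0.19 in WT and 0.96 and 0.86 in KI. In WT the ratio was thus similar in both classes for Ddc but lower in DG for the antisense transcript, and in KI it was lower in DG than in oligodendrocytes for both. The share of neuronal Ddc UMIs that came from free RNA was not tested.

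**Figure D3:**
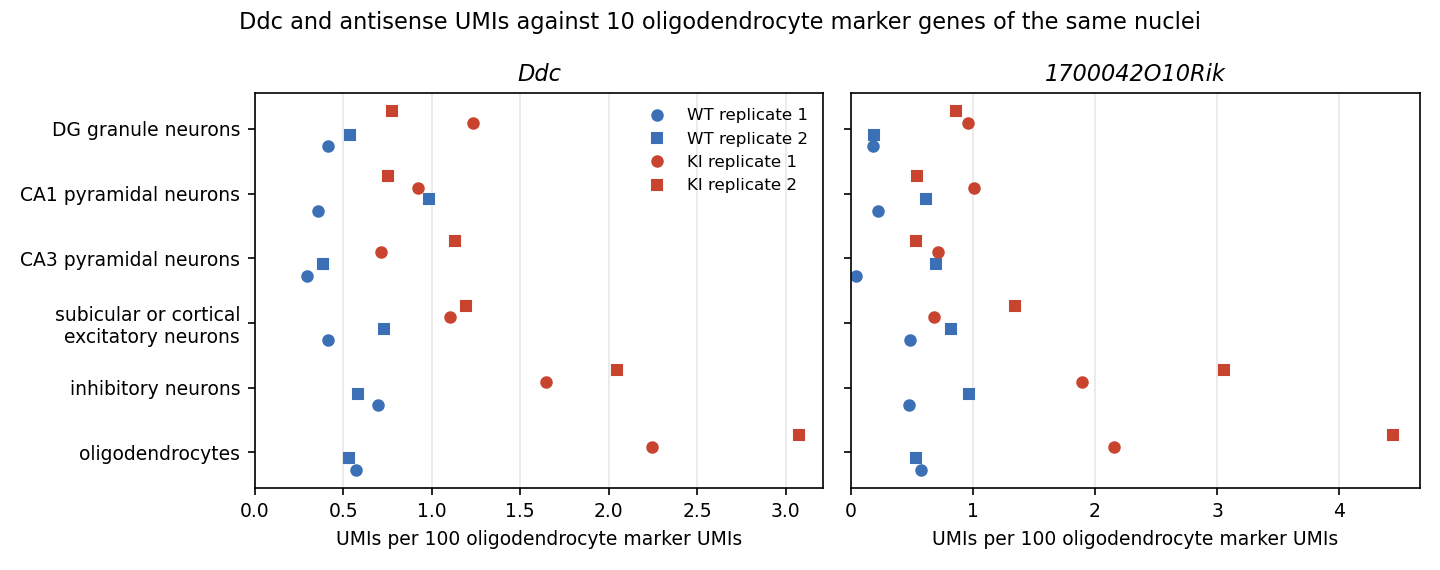
UMIs of Ddc (left) and 1700042O10Rik (right) per 100 UMIs of 10 oligodendrocyte marker genes counted in the same nuclei, per neuron class, without the rare Cajal-Retzius cells, and in oligodendrocytes; blue WT, red KI. The WT values shown lie between 0.29 and 0.98 for Ddc, and KI oligodendrocytes stand at 2.24 and 3.07.

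The remaining glial and neuron classes rested on few UMIs. Inhibitory neurons stood at 2.61 and 1.44 CPM of Ddc in WT and at 3.37 and 8.02 in KI, and of the antisense transcript at 1.78 and 2.39 in WT and 3.87 and 12.0 in KI. Neither overlapped between genotypes there, although the 2 KI libraries differed more from each other than the lower of them did from WT. Oligodendrocyte precursors, the dividing cells from which oligodendrocytes form, stood at 4.16 and 16.9 CPM in WT and at 8.29 and 15.3 in KI, overlapping between genotypes, from 4 to 13 UMIs per library. Astrocytes held 6 and 1 Ddc UMIs in WT and 1 and 16 in KI. Microglia held 0 and 2 in WT and 7 and 5 in KI. In order of Ddc level, oligodendrocytes stood first among the named classes in all 4 libraries, and the ranks of precursors, astrocytes and microglia below them changed between libraries.

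A second group of nuclei carried many of these UMIs and could not be named. The largest unnamed cluster, 591 and 351 nuclei in WT and 444 and 959 in KI, had 10 of 10 oligodendrocyte and 10 of 10 microglia markers raised. Ddc stood there at 21.1 and 18.9 CPM in WT and at 149.3 and 116.3 in KI, and the antisense transcript at 18.1 and 20.4 in WT and at 155.8 and 195.8 in KI. It held 20% and 14.3% of all Ddc UMIs in WT and 24.7% and 56.4% in KI. Oligodendrocytes held 50% and 40.1% in WT and 62.2% and 23.9% in KI, so in KI replicate 2 the unnamed cluster held the larger share. Its median doublet score was 0.09 to 0.13 and its median depth 3654 to 6052 UMIs, above that of oligodendrocytes. Whether it holds merged droplets was not tested.

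Nuclei of this cluster also decided the values of precursors and microglia when classes were set by the marker gate. Gated precursors held 3 and 4 Ddc UMIs in WT and 50 and 96 in KI, or 2.25, 3.71, 37.3 and 57.0 CPM, and the antisense transcript stood at 8.24, 6.49, 30.6 and 74.2 CPM. Of those KI UMIs of Ddc, 43 and 92 lay in gated nuclei of the unnamed cluster, and 3 and 2 in nuclei of the precursor class. Gated microglia stood at 12.3 and 10.3 CPM of Ddc in WT and 102.5 and 97.8 in KI, and at 7.68 and 9.47 of the antisense transcript in WT and 105.6 and 163.8 in KI. Of their 100 and 157 KI UMIs of Ddc, 90 and 137 lay in the unnamed cluster, and 3 in each KI library in the microglia class. Under the gate both classes were thus apart between genotypes, with nearly all of the KI UMIs in nuclei that the clustering left unnamed.

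With every unnamed cluster left out of the sums, an alternative chosen after seeing the data, Ddc stood at 4.75, 3.57, 16.3 and 10.9 CPM and the antisense transcript at 4.07, 3.36, 15.3 and 14.4, ratios of KI to WT of 3.27 and 3.99.

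Whether the increase differed between classes was tested. The libraries are those whose higher KI values chose Ddc and 1700042O10Rik, so the p-values of these genes are not independent of the choice. The log2 fold change of Ddc in oligodendrocytes exceeded that in DG granule neurons by 1.09 (SE 0.41), which did not pass (edgeR adjusted p = 0.17). For the antisense transcript the difference was 0.16 (SE 0.63, edgeR adjusted p = 0.97). None of the 8 differences between a class and DG granule neurons passed for Ddc or for 1700042O10Rik. At an unadjusted p under 0.05 stood 1 for Ddc and 3 for 1700042O10Rik. Over all 18738 genes, between 1361 in microglia and 3143 in CA1 had such a p. The increase was thus not shown to be greater on the log scale in oligodendrocytes than in DG. Without KI replicate 2, 1 difference passed for 1700042O10Rik, its effect in subicular or cortical excitatory neurons being lower than in DG by 2.51 (edgeR adjusted p = 0.0058), in a fit in which 1494 of 20071 genes passed for that class. The share of all genes that passed in these comparisons was 2.87% for oligodendrocytes, 0.902% for their precursors, 6.62% for CA1, 4.58% for CA3, 5.59% for subicular or cortical excitatory neurons, 4.8% for inhibitory neurons, 1.47% for astrocytes and 0.336% for microglia.

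Levels of each gene with a mean of at least 10 CPM over all nuclei, and of the members, were compared with those of Ddc over 40 class-by-library sums. Among the 5 genes most alike, Pearson's r of log2(CPM + 1) was 0.88 for Cldn11, a tight junction protein of myelin, 0.88 for Mag, a myelin glycoprotein, 0.87 for Cdc37l1, 0.86 for Rcbtb1 and 0.86 for Tubb4a, a tubulin of oligodendrocytes. With 1700042O10Rik they were Tubb4a (0.88), Itgad (0.87), Slc13a1 (0.86), Cdc37l1 (0.85) and Polr3e (0.83), and the 2 transcripts had an r of 0.86 with each other. Of the other members Fignl1 had 0.49, Cobl 0.42, Ikzf1 0.19 and Grb10 -0.33 with Ddc. The sums share libraries and depth, and the values are a description.

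The neighbours on either side of Ddc did not pass in sums over all nuclei. Of 14 genes of the files within 1 Mb of Ddc, 10 were tested, and of the 8 that are neither Ddc nor its antisense transcript 0 passed in edgeR, 4 had an unadjusted p under 0.05 and 1, Vwc2, passed in DESeq2. Their log2 fold changes ran from 0.25 to 1.29 with a median of 0.45, against a median of 0.01 over all genes tested. Thus all 8 were above 0, and none reached the increase of Ddc. The nearest tested genes that are not members were Spata48, at 0.39 (SE 0.20), and Zpbp, at 0.48 (SE 0.19), both below Ddc, and the antisense transcript Gm12002, at 0.46 (SE 0.38), above it. Over all genes, 5260 of 21715 had an unadjusted p under 0.05 and 1791 passed in DESeq2. Without KI replicate 2, 5 of the 8 passed, namely Vwc2, Zpbp, Spata48, Fignl1 and Grb10, in a fit in which 7130 of 22242 genes passed, and without KI replicate 1 Vwc2 passed, as did 1066 of 22190 genes.

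In oligodendrocytes 5 other genes of the window were tested. None passed in edgeR or DESeq2, 2 had an unadjusted p under 0.05, and their log2 fold changes ran from -0.73 to 1.005 with a median of 0.01. The share of all 12803 genes tested in oligodendrocytes that passed was 0.82%, with 1807 at an unadjusted p under 0.05 and 118 called by DESeq2. Values above 0 for every gene of the window, as over all nuclei, were not seen within this class, where Fignl1, Zpbp and Spata48 had too few UMIs to be tested.

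**Figure D4:**
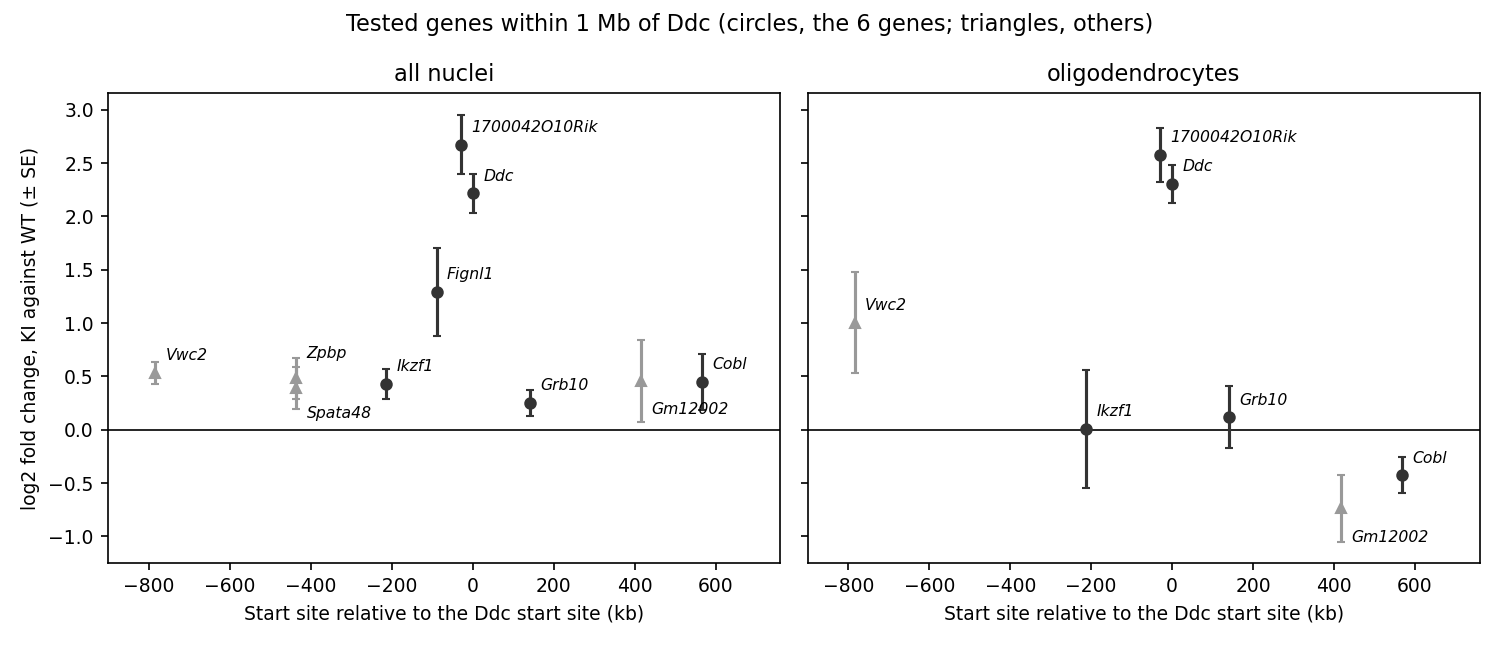
Log2 fold change of KI against WT, with its standard error, of each tested gene within 1 Mb of Ddc, against the distance of its start site from that of Ddc in kb, for all nuclei (left) and oligodendrocytes (right). Ddc and 1700042O10Rik stand at 2.22 and 2.67 over all nuclei and at 2.30 and 2.58 in oligodendrocytes, given without a test, and none of the other genes of the window passed the test in either.

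Fignl1, the nearest gene below Ddc, codes for an ATPase of the fidgetin family that acts in DNA repair. It was the rarest member, at 0.22 and 0.15 CPM in WT and 0.52 and 0.36 in KI over all nuclei, from 15, 10, 35 and 26 UMIs. The KI libraries lay above WT, by a fitted log2 fold change of 1.29 (SE 0.41) that did not pass (edgeR adjusted p = 0.15). In oligodendrocytes it had 2 and 1 UMIs in WT and 6 and 7 in KI, and in no class was it above the low-count filter. Without KI replicate 2 its edgeR adjusted p was 0.049, in the fit in which 7130 of 22242 genes passed.

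Ikzf1 codes for Ikaros, a zinc finger factor of blood cell development that microglia also express. Over all nuclei it stood at 11.7 and 10.0 CPM in WT and 13.6 and 14.8 in KI (log2 fold change 0.43, SE 0.14, edgeR adjusted p = 0.15). In microglia, where it was highest, it stood at 501.8 and 594.6 CPM in WT and 605.3 and 493.9 in KI. The genotypes overlapped there, and the means were 548.2 ± 65.6 and 549.6 ± 78.8 CPM (SD, n = 2). With the unnamed clusters left out, all nuclei held 6.88 and 5.84 CPM in WT and 6.56 and 5.19 in KI, so the higher KI values over all nuclei moved with the unnamed clusters, the largest of which carried microglia markers.

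Grb10 codes for an adaptor protein that binds the insulin and IGF1 receptors and dampens their signal. Over all nuclei it stood at 45.9 and 51.9 CPM in WT and 59.5 and 52.7 in KI. The log2 fold change of 0.25 (SE 0.12) did not pass (edgeR adjusted p = 0.26, and 0.042 without KI replicate 2, where 7130 of 22242 genes passed). It was highest in inhibitory neurons, at 118.2 and 103.7 CPM in WT and 112.0 and 109.8 in KI. Subicular or cortical excitatory neurons followed, at 66.0 to 84.3 CPM over the 4 libraries, a range below that of inhibitory neurons. In oligodendrocytes, where Ddc was highest, Grb10 was among the lowest, at 13.5 and 11.7 CPM in WT and 12.9 and 13.5 in KI. The gene next to Ddc was thus highest in another cell class, and 0 of 9 class tests passed for Grb10 in edgeR or DESeq2, with 0 at an unadjusted p under 0.05.

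Cobl codes for cordon-bleu, an actin nucleator that shapes dendrites. Over all nuclei it stood at 37.0 and 61.9 CPM in WT and 54.4 and 76.2 in KI, overlapping between genotypes (log2 fold change 0.45, SE 0.26, edgeR adjusted p = 0.34). Subicular or cortical excitatory neurons held 3490 of the 6671 Cobl UMIs in WT and 5888 of the 9234 in KI. Their nuclei, a share that enters the sums over all nuclei, numbered 1230 and 2470 in WT and 2140 and 3468 in KI. Within classes the values of the genotypes lay apart in opposite directions. In inhibitory neurons KI lay above WT at a ratio of mean CPM of 1.37, from 300 WT and 529 KI UMIs, which did not pass. In DG granule neurons Cobl rose from 14.4 and 16.2 CPM to 28.4 and 27.7 (log2 fold change 1.01, SE 0.14, edgeR adjusted p = 0.011), where 9.67% of all genes passed. In oligodendrocytes it stood at 119.8 and 126.9 CPM in WT and 81.8 and 95.2 in KI (-0.42, SE 0.17, edgeR adjusted p = 0.29), and in their precursors at 210.1 and 310.7 in WT and 165.9 and 171.0 in KI (-0.51, SE 0.23, edgeR adjusted p = 0.64).

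The difference between those effects was larger than the spread between libraries. The genotype effect on Cobl was lower than in DG granule neurons by 1.46 in oligodendrocytes (SE 0.22, edgeR adjusted p = 4.5e-05) and by 1.53 in their precursors (SE 0.23, edgeR adjusted p = 1.0e-04), on the log2 scale. It was also lower by 1.32 in CA3 (edgeR adjusted p = 0.0097), by 0.93 in CA1 (0.0050) and by 0.76 in subicular or cortical excitatory neurons (0.011). Of 48 such differences over the 6 genes and 8 classes, these 5 passed, and the differences in oligodendrocytes and precursors passed without any 1 library. The call in CA1 was lost without WT replicate 1 (edgeR adjusted p = 0.075) or KI replicate 1 (0.053). The calls in CA3 and in subicular or cortical neurons were lost without WT replicate 2 (0.18 and 0.36) or KI replicate 1 (0.22 and 0.27).

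The rise of Cobl in DG was not seen within its clusters. In the DG cluster with 4119 and 3138 WT and 209 and 670 KI nuclei, Cobl stood at 13.2 and 15.1 CPM in WT and 6.01 and 10.3 in KI. In the DG cluster with 179 and 153 WT and 2267 and 1553 KI nuclei, it stood at 41.0 and 38.3 CPM in WT and 30.5 and 35.2 in KI. In each cluster the KI values lay below the WT values, from 36 KI UMIs in the first and 59 WT UMIs in the second. The higher KI level over the class thus went with the share of its nuclei in the second cluster. The clusters divide mostly by genotype, so a shift of shares and a change within the same nuclei cannot be told apart. The call in DG was also lost without WT replicate 1 (edgeR adjusted p = 0.20) or WT replicate 2 (0.13), where the remaining WT library is assumed to vary like the KI libraries. With library totals in place of scaling factors, the Cobl log2 fold change in DG was 0.87, and the genes called there were 611 higher and 1227 lower against 784 and 799, with the median of all genes at -0.13.

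**Figure D5:**
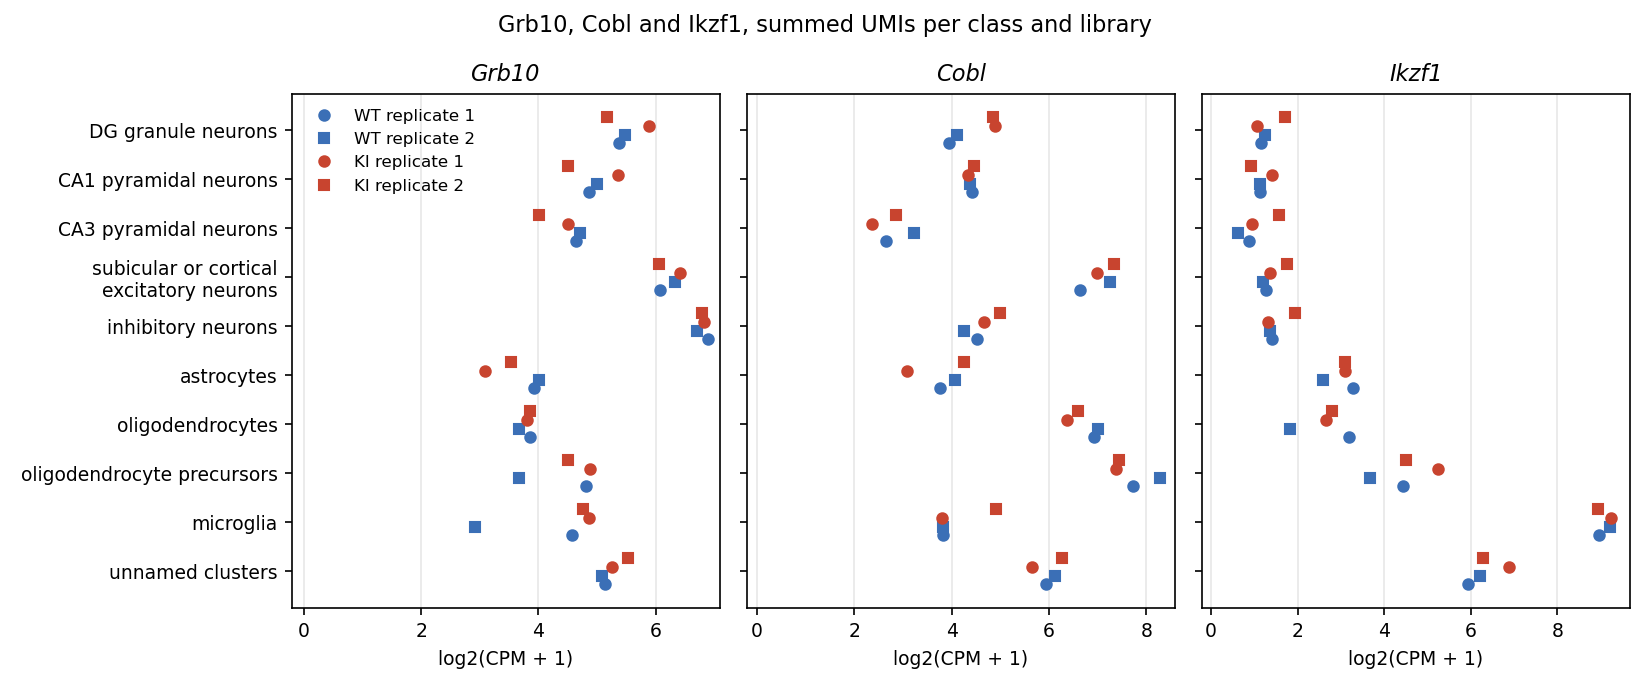
Level of Grb10, Cobl and Ikzf1 in each cell class, as log2(CPM + 1) of the UMIs summed per library; circles and squares are replicates 1 and 2, blue WT and red KI. Each gene has its own highest class, inhibitory neurons for Grb10, oligodendrocyte precursors for Cobl and microglia for Ikzf1. Cobl is higher in KI in DG granule neurons and inhibitory neurons and lower in oligodendrocytes and their precursors.

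Over all classes, 24 tests were made of Grb10, Cobl and Ikzf1, and the 1 that passed was Cobl in DG. The share of all genes that passed was 7.8% in CA1, 2.41% in CA3, 0.00556% in subicular or cortical excitatory neurons, 0.0125% in inhibitory neurons, 0.00934% in astrocytes, 0.0103% in oligodendrocyte precursors and 0.0% in microglia, where edgeR called 0 of 8129 genes, 535 had an unadjusted p under 0.05 and DESeq2 called 1.

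Genes of aromatic amine metabolism, transport and reception, with related decarboxylases, were set beside Ddc. Of 26 such genes, 22 were tested over all nuclei and 0 passed in edgeR, with 7 at an unadjusted p under 0.05 and 3 called by DESeq2, beside 5260 and 1791 of all 21715 genes. The median log2 fold change was 0.26, against 0.01 over all genes. Among the most abundant were Gad1, the GABA-making enzyme, at 62.7, 53.1, 46.9 and 51.2 CPM, Maoa, which oxidises amines, at 13.7, 15.3, 21.4 and 20.4 CPM, and Qdpr, which recycles the cofactor of the hydroxylases, at 26.0, 17.5, 11.9 and 15.3 CPM.

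Th, which makes L-DOPA, the substrate of Ddc, stood over all nuclei at 0.043 and 0.045 CPM in WT and 0.28 and 0.27 in KI. Its log2 fold change of 2.65 (SE 0.46) rests on few WT UMIs and did not pass (edgeR adjusted p = 0.063). In oligodendrocytes Th stood at 0.0, 0.0, 0.29 and 0.75 CPM, with Tph1 at 0.0 in all 4 libraries and 0.63, 0.0, 0.29 and 0.0 for Tph2, the hydroxylases that make 5-hydroxytryptophan. Of the 26 genes 11 were tested in that class, and 0 passed in edgeR. At an unadjusted p under 0.05 stood 2, and DESeq2 called 1, beside 1807 and 118 of all 12803 genes. In DG granule neurons, whose clusters divide by genotype, 4 of 15 passed, where 9.67% of all genes did. Drd1, a dopamine receptor, stood at 1.34 and 1.64 CPM in WT and 17.1 and 15.6 in KI (log2 fold change 3.59, SE 0.22, edgeR adjusted p = 0.0020), and Maoa rose by 0.80 on the log2 scale (edgeR adjusted p = 0.037). Aldh2, an aldehyde dehydrogenase, fell by 1.37 on the log2 scale (edgeR adjusted p = 0.023).

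The lists set beside the other members gave like counts. Over all nuclei 0 of 10 Grb10 signalling genes, 0 of 4 Ikaros family genes, 0 of 8 Cobl-related genes, 0 of 6 Fignl1-related genes and 0 of 30 imprinted genes passed in edgeR, with 4, 1, 2, 0 and 9 at an unadjusted p under 0.05 and 3, 0, 1, 0 and 3 called by DESeq2. Over all 21715 genes those counts were 5260 and 1791. Their median log2 fold changes were -0.17, -0.04, -0.06, -0.18 and 0.16. In DG granule neurons 2 of 8 Grb10 signalling genes, 1 of 3 Ikaros family genes, 2 of 8 Cobl-related genes and 0 of 5 Fignl1-related genes passed in edgeR. At an unadjusted p under 0.05 stood 5, 1, 4 and 1, and DESeq2 called 2, 1, 2 and 0. Over all 16376 genes tested in DG, 1583 passed in edgeR, 4791 had an unadjusted p under 0.05 and DESeq2 called 1730. The DG nuclei lay mostly in different clusters by genotype, and whether these genes differed within the clusters was not tested. Grb14, a relative of Grb10, fell from 198.6 and 205.5 CPM to 32.8 and 56.9 (log2 fold change -2.05, SE 0.22, edgeR adjusted p = 0.0055), and Irs2, an insulin receptor substrate, fell by 0.77 on the log2 scale. Ikzf2, Cobll1 and Pacsin2 also fell there, by 0.87, 0.97 and 0.55. Of 26 imprinted genes tested in DG, Meg3 and Usp29 rose by 0.65 and 0.71 and Kcnk9 fell by 0.99 on the log2 scale, beside a background of 9.67% of all genes.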

How the data were processed

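Nuclei from the hippocampus of 4 mice were profiled with a droplet 3' method. The deposited matrices hold raw counts of UMIs per gene and nucleus, not normalized, which the authors made with Cell Ranger 7.0.1 according to the headers. The processing notes name mm10, and neither the annotation used for counting nor the treatment of introns is given in the sources used here. The study compared nuclei, whereas here each library was 1 replicate.

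Nuclei needed 500 genes and less than 5% of UMIs from mitochondrial genes (345 barcodes removed). Scrublet in scanpy 1.11.5 marked 3279 doublets (5.93%) at a score of 0.25, set after scores were seen. Clustering used 2000 variable genes without the 6 members, 30 components and Leiden resolution 0.5. Of 23 clusters 4 stayed unnamed, by limits set after the clusters were seen. UMIs summed per library and class were tested with edgeR 4.0.16 (quasi-likelihood, TMM factors, filterByExpr, R 4.3.3) and Benjamini-Hochberg adjustment over all genes tested, with DESeq2 1.42.0 as an alternative. The class-by-genotype fit had library as a block. Fits were tested on simulated data. Positions came from GENCODE on GRCm38, with 32158 of 32285 gene IDs found.

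The members and lists were chosen with earlier results of these data known. Named were the 6 members, window genes past an adjusted p of 0.05 and the 2 nearest tested non-members on each side, and list genes past it or otherwise up to 4 of highest CPM. Also named were the 5 genes, among those of at least 10 CPM over all nuclei, most correlated with Ddc or its antisense transcript. Genes outside these rules, such as Th, Vwc2 and the hydroxylases, were named after their values were seen. A gene that the rules would name is not reported here.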

Additional observations from a re-analysis of the deposited data

Results flagged for a closer look

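The genotype effect on Cobl differed between cell classes and DG granule neurons in 5 tests of the difference itself (edgeR class-by-genotype term, adjusted p under 0.05). On the log2 scale the effect minus that in DG granule neurons was -0.93 in CA1 pyramidal neurons, -1.32 in CA3 pyramidal neurons, -0.76 in subicular or cortical excitatory neurons, -1.46 in oligodendrocytes and -1.53 in oligodendrocyte precursors. Within each of the 2 DG clusters the KI values of Cobl lay below the WT values. The DG value that enters all 5 differences thus went with the shares of those clusters. The clusters divide mostly by genotype, so a shift of shares and a change within the same nuclei cannot be told apart.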

How the results depend on the processing

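With 2 libraries per group, p-values measure only the spread between these libraries. Counts of genes called over all nuclei were 190, and 1791 with DESeq2, 696 with no low-count filter and 1486 with the replicate block; in oligodendrocytes 105, and 748 with no filter, 274 with the block and 7 with classes set by a marker gate on each nucleus; in DG granule neurons 1583, and 3366 with no filter and 2930 with the block. The replicate numbers did not pair the libraries (correlation of deviations 0.0836 over 9762 genes), and with the block Ddc and 1700042O10Rik had log2 fold changes of 2.23 and 2.63 over all nuclei, and no call on Fignl1, Grb10, Cobl or Ikzf1 over all nuclei, or on Cobl in DG or oligodendrocytes, changed. Aromatic amine genes called were 0, and 3 with DESeq2 (Maoa, Drd1, Aldh2) and 2 with the block (Th, Drd1). Window genes called, other than Ddc and its antisense, were 0, and 1 with DESeq2. With the marker gate the log2 fold change of Ddc was 2.13 in oligodendrocytes, and in DG 1.53 for Ddc and 4.02 for 1700042O10Rik, where 43 of the 67 antisense UMIs of KI replicate 2 lay in the largest unnamed cluster, while Ddc in DG was 1.07 with library totals. Over named classes only, an alternative chosen after seeing the data, the log2 ratio of mean CPM fell from 2.17 to 1.71 for Ddc and from 2.63 to 2.00 for 1700042O10Rik. The cause of the other changes was not tested.

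Leaving out 1 library at a time gave, over all nuclei, 2.00 to 2.46 for Ddc, 2.23 to 2.996 for 1700042O10Rik, 0.96 to 1.57 for Fignl1, 0.13 to 0.35 for Grb10, 0.12 to 0.86 for Cobl and 0.31 to 0.55 for Ikzf1. In oligodendrocytes it gave 2.21 to 2.38 for Ddc, 2.15 to 2.91 for 1700042O10Rik and -0.49 to -0.35 for Cobl, and in DG 0.93 to 1.09 for Cobl, whose call there was lost without either WT replicate. Over oligodendrocyte precursors Cobl ran from -0.78 to -0.20. The Cobl differences from DG ran from -1.56 to -1.33 in oligodendrocytes, -1.72 to -1.31 in precursors, -1.03 to -0.84 in CA1, -1.64 to -0.98 in CA3 and -0.98 to -0.52 in subicular or cortical neurons. The oligodendrocyte difference ran from 0.92 to 1.28 for Ddc and from -0.11 to 0.36 for 1700042O10Rik, so the sign of the latter depended on WT replicate 1 and KI replicate 2. Genes called ran from 216 to 7130 over all nuclei, 112 to 2685 in oligodendrocytes and 183 to 7639 in DG, highest without KI replicate 2; window genes other than Ddc and its antisense from 0 to 5, aromatic amine genes from 0 to 6, class tests from 0 to 5 and differences from DG from 2 to 6. Fignl1, at 10 to 35 UMIs per library, passed the low-count filter in no single class.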
